A study of Mus musculus with 20 samples.

Results

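Whole-testis RNA of mice with synchronized spermatogenesis was compared between stages VI-VIII of the seminiferous cycle and the other 4 windows of the cycle. The comparison took every array labelled Total, which is 10 of the 20 arrays of the study: 2 of window VI-VIII and 8 of the windows XII-II/III, II/III-VI, VIII-X and X-XII, with 2 each. All animals were RiboTag-positive/Cyp17icre-positive males of the mixed strain 129/C57BL6, so that the other windows share their RiboTag and Cyp17icre status with VI-VIII. RiboTag adds an HA epitope to a ribosomal protein where Cre is active, and the Cyp17 driver places Cre in Leydig cells, the androgen-producing cells between the tubules. The other 10 arrays (IP) hold RNA precipitated with an antibody against HA.

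Every animal received the retinoic acid synthesis inhibitor WIN 18,446 at 100 µg per g body weight daily for 7 days from 2 days after birth, then 200 µg all-trans retinoic acid at 9 days after birth, and recovered for 42 to 50 days. The protocol takes 1 testis per time point and 50 µl of its homogenate as Total RNA, and 100 ng of RNA was amplified for each array (Affymetrix GeneChip ST 1.0). The windows are ranges that meet at a shared stage, VI for II/III-VI and VI-VIII and VIII for VI-VIII and VIII-X. No group lacked the drug treatment, so an untreated testis enters no value here. Labels of 1 array conflict: it was placed in XII-II/III by its title and stage, although its source is given as X-II/III.

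The seminiferous epithelium passes through a fixed series of stages, each a set association of spermatogonia, spermatocytes and spermatids around Sertoli cells. In the middle of the cycle the preleptotene spermatocytes begin meiosis and cross the blood-testis barrier, round spermatids build their acrosome, and the oldest spermatids are released into the lumen, leaving residual cytoplasm that Sertoli cells take up. The meiotic divisions take place at the end of the cycle, and the nuclei of elongating spermatids are repacked with transition proteins and then protamines in the windows that follow. Synchronization brings most tubules of a testis to neighbouring stages, so that whole-testis RNA can be read by stage.

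Values are log2 of the deposited array intensities, and a difference is VI-VIII minus the mean of the other 4 window means, on the log2 scale. The arrays fell into sets of 5 (replicate 1 and replicate 2, each with all 5 windows), and the set was a term of the model. Genes were tested with limma, with 4 residual degrees of freedom, and called at a Benjamini-Hochberg adjusted p under 0.05. Of 18450 genes with values in all 10 arrays, 14540 had a mean above the filter at log2 8.12 and were tested. The median SE of a difference was 0.060. Beyond the protocol's 1 testis per time point nothing states how replicates were taken, and p-values measure the spread between these arrays.

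After each gene was centred within its set of 5, the profiles of the 2 VI-VIII arrays correlated across genes with r = 0.849. They also correlated with those of II/III-VI, with r from 0.363 to 0.838 over the 4 pairs of arrays. Against the other 3 windows all 12 coefficients were negative, from -0.163 (VI-VIII replicate 2 with VIII-X replicate 2) to -0.903. These coefficients are over genes, which are not independent, and centring within a set itself pushes arrays of different windows apart. VI-VIII replicate 2 was the less like II/III-VI of the pair, with r of 0.363 and 0.588 against 0.652 and 0.838 for replicate 1.

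Window VI-VIII differed from the mean of the other 4 windows in 4745 genes (32.6% of those tested), of which 40.6% were higher. In it 1925 genes (13.2%) were higher and 2820 (19.4%) lower. Most differences were small: the median was 0.41 among higher genes and -0.39 among lower genes, and 247 higher genes (1.7%) and 179 lower genes (1.23%) differed by at least 1 log2 unit. After centring by set, both VI-VIII arrays lay above all other 8 arrays for 1009 of the higher genes (6.94% of all tested) and below them for 1647 of the lower (11.3%). The median over all tested genes was -0.012. Leaving out VI-VIII replicate 1 reduced the calls to 659 higher (4.53%) and 930 lower (6.4%), and leaving out replicate 2 to 1072 (7.37%) and 1706 (11.7%). When the 8 other arrays were treated as 1 group, so that differences among their windows counted as spread, 80 genes were higher and 178 lower. After quantile normalization the counts were 2231 higher and 2450 lower, so that the excess of lower genes was smaller under that scaling.

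Against single windows, the calls came from 3 of the 4. VI-VIII exceeded XII-II/III in 1947 genes (13.4%) and fell short of it in 2920 (20.1%), and the counts against VIII-X were 1764 (12.1%) and 2563 (17.6%). Against X-XII they were 2097 (14.4%) and 2943 (20.2%). Against II/III-VI limma called 0 genes (0%) in either direction, with a smallest adjusted p of 0.109, although 1378 genes were higher (9.48%) and 1976 lower (13.6%) at an unadjusted p under 0.05 and 103 genes differed by more than 1 log2 unit. Without VI-VIII replicate 1 the counts were 1086 and 1614 against XII-II/III, 675 and 979 against VIII-X, 1246 and 1658 against X-XII, and 7 and 1 against II/III-VI.

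**Figure D1:**
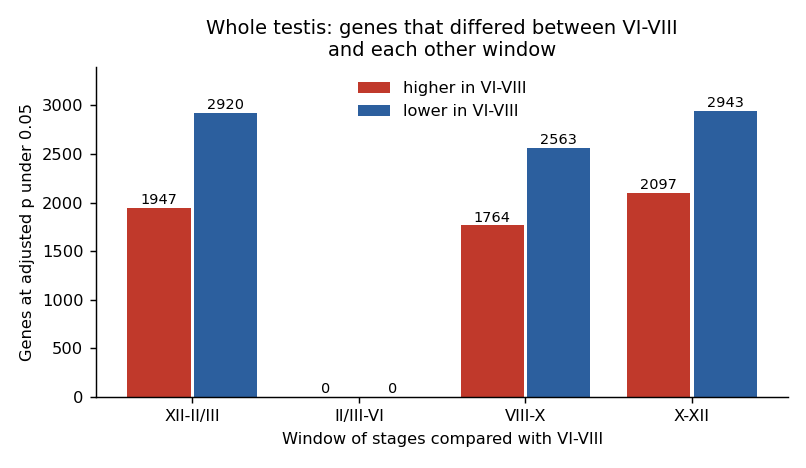
Number of genes (of 14540 tested in whole testis) at a limma adjusted p under 0.05, by the window compared with VI-VIII; red bars are genes higher in VI-VIII and blue bars genes lower. The bars against XII-II/III, VIII-X and X-XII stand between 1764 and 2943, and both bars against II/III-VI stand at 0.

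For most called genes VI-VIII and II/III-VI had the 2 most extreme window means. Calling genes on the difference of VI-VIII itself favours VI-VIII as the extreme window, so its shares are a description. VI-VIII had the highest window mean for 1432 of the 1925 higher genes (74.4%) and II/III-VI for 491 (25.5%), and these were the top pair of windows for 1669 (86.7%). Among the 2820 lower genes VI-VIII had the lowest mean for 2198 (77.9%) and II/III-VI for 613, and these were the bottom pair for 2308 (81.8%). With II/III-VI left out of the comparison group, an alternative chosen after seeing the data, 2412 genes were higher and 3421 lower.

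Among genes with set-centred VI-VIII values above all others, the 12 with the largest difference lay between 2.04 and 2.65. That position was a condition of the choice and is no result for the 12. Genes with overlap, such as Spam1 (3.08), were left out. Serpina3a, which encodes a serine protease inhibitor of the serpin family, read 11.32 and 11.66 in the VI-VIII arrays, and the other 8 arrays had a lowest value of 7.69, a median of 8.28 and a highest of 11.62. The difference was 2.65 ± 0.24 (SE, n = 2 against 8 arrays, limma adjusted p = 0.00145). The II/III-VI arrays (10.33 and 11.62) were the only others above 9, and the deposited values overlapped through the second of them. Aqp8, a water channel found in Sertoli and germ cells, read 12.07 and 12.09 in VI-VIII and 11.72 and 12.05 in II/III-VI, with a lowest value of 8.26 and a median of 8.78 in the comparison group. Its difference was 2.50 ± 0.17 (limma adjusted p = 0.000983). Plin2, which coats lipid droplets, read 12.30 and 12.48 in VI-VIII, and the others ran from 9.22 through a median of 9.62 to 12.24 in II/III-VI replicate 2. Plin2 was higher by 2.28 ± 0.13 (limma adjusted p = 0.00083).

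Klk1b22, a kallikrein-related peptidase, was not high in II/III-VI. It read 10.42 and 11.69 in VI-VIII against 8.60 and 9.53 in II/III-VI, and the other 8 arrays ran from 8.11 through a median of 9.02 to 9.78 in VIII-X replicate 2. The difference was 2.04 ± 0.35 (limma adjusted p = 0.00747), and the VI-VIII arrays were more than 1 log2 unit apart. The Klk1b genes are close copies of each other, so the probe set may read several of them. Without VI-VIII replicate 1 the adjusted p of Klk1b22 was 0.051, and without replicate 2 it was 0.0766.

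The other 8 genes of the leading 12 were Stambpl1, a deubiquitinating enzyme (2.29 ± 0.18), Tssk5, of the testis-specific serine kinase family (2.11 ± 0.12), Fam24b (2.05 ± 0.12), the ankyrin repeat gene Asb15 (2.36 ± 0.39), 4930558K02Rik (2.45 ± 0.24), 1700001P01Rik (2.26 ± 0.36), 4930432E11Rik (2.12 ± 0.20) and 4933404G15Rik (2.05 ± 0.32). Tssk5 read 11.07 and 11.16 in VI-VIII and 10.39 and 11.13 in II/III-VI, and no more than 8.76 in the remaining windows. Fam24b read 13.23 and 13.43 in VI-VIII and 9.70 to 13.31 in the others. Asb15 was intermediate in both neighbouring windows, with 11.28 and 11.84 in VI-VIII, 9.45 and 10.95 in II/III-VI, 9.45 and 10.54 in VIII-X and 8.50 and 8.11 in XII-II/III. Asb15 and 4933404G15Rik missed the threshold without either VI-VIII array (limma adjusted p = 0.0652 and 0.0575, and 0.0529 and 0.0546), and 1700001P01Rik missed it without replicate 2 (0.0583).

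**Figure D2:**
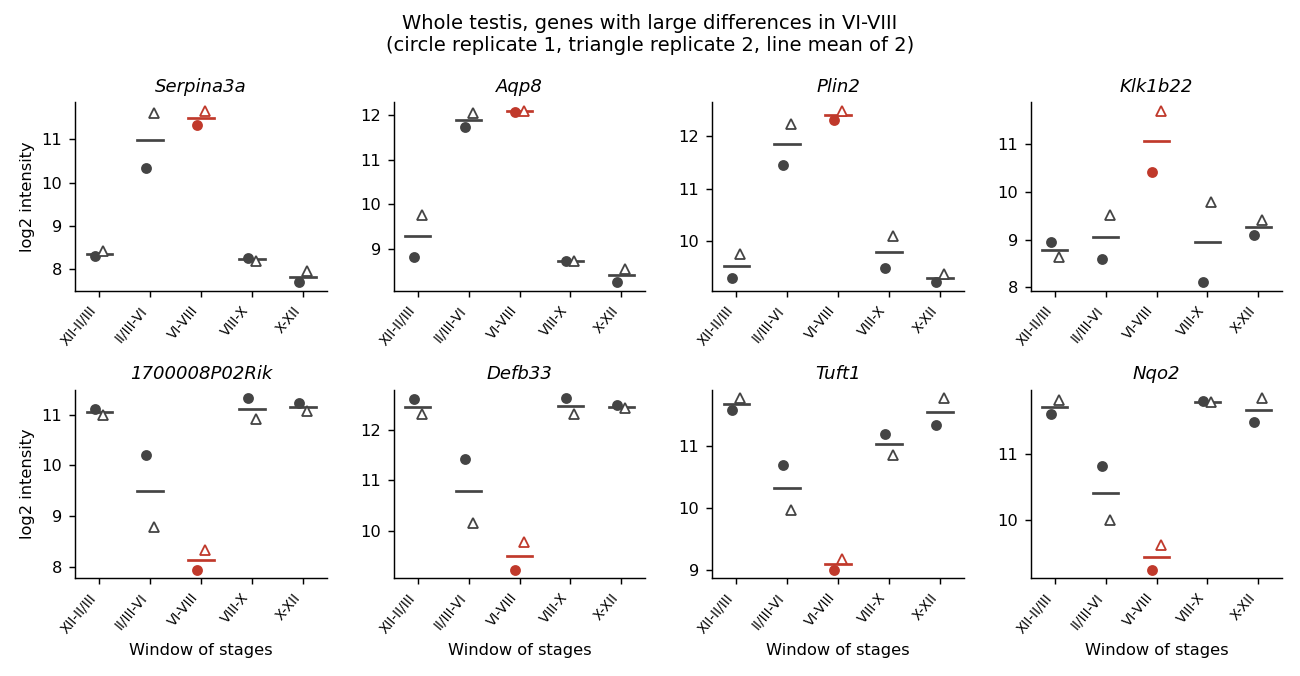
Log2 intensity (y axis) of 8 leading genes in each whole-testis array by window of stages (x axis), with VI-VIII in red, circles for replicate 1, open triangles for replicate 2 and lines for the mean of the pair. Serpina3a, Aqp8 and Plin2 are high in II/III-VI and VI-VIII, Klk1b22 is high in VI-VIII, and the 4 genes of the lower row are lower in II/III-VI than in the remaining windows and reach their lowest values in VI-VIII.

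Among genes with set-centred VI-VIII values below all others, again a condition of the choice, the 12 lowest had differences from -2.57 to -1.75. Genes with overlap, such as Pou5f2 (-2.17) and Tnp1 (-2.01), were left out. 1700008P02Rik read 7.94 and 8.34 in VI-VIII, and the other 8 arrays ran from 8.79 in II/III-VI replicate 2 through a median of 11.03 to 11.33. It differed by -2.57 ± 0.30 (limma adjusted p = 0.00243). Defb33, a beta-defensin, read 9.23 and 9.78 against 10.15 to 12.63 (median 12.37), a difference of -2.54 ± 0.30 (limma adjusted p = 0.00241). Odf3b, a relative of the outer dense fibre gene Odf3, read 9.81 and 10.15 against 10.53 to 12.78 (median 12.55) and differed by -2.24 ± 0.28 (limma adjusted p = 0.00271). In each of these genes the lowest values of the comparison group were those of II/III-VI, at 10.21 and 8.79, 11.43 and 10.15 and 11.79 and 10.53, between VI-VIII and the rest.

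Tuft1, which encodes tuftelin, read 9.01 and 9.18 in VI-VIII, 10.68 and 9.97 in II/III-VI and 11.19 and 10.86 in VIII-X, and differed by -2.05 ± 0.21 (limma adjusted p = 0.0018). Nqo2, a quinone reductase, read 9.25 and 9.63 in VI-VIII against a median of 11.70 and a highest value of 11.85, with II/III-VI replicate 1 at 10.82 and replicate 2 lowest at 10, and differed by -1.96 ± 0.23 (limma adjusted p = 0.00227). Tex46, a testis-expressed gene, had the smallest adjusted p of the 12 (0.000453), with 9.64 and 9.49 in VI-VIII, 10.24 to 11.76 elsewhere and a difference of -1.75 ± 0.067. The others were the cystatin-domain gene Cstdc1 (-1.81 ± 0.11), the zinc finger gene Zbtb42 (-1.79 ± 0.19), the threonyl-tRNA synthetase relative Tarsl2 (-1.78 ± 0.11), Spata32 (-1.75 ± 0.25), the olfactory receptor gene Olfr1280 (-2.06 ± 0.27) and Hmgb1-rs17 (-1.86 ± 0.19). Olfr1280 and Hmgb1-rs17 belong to families of near-identical copies, and which copy was read is uncertain. Spata32 missed the threshold without VI-VIII replicate 1 (limma adjusted p = 0.0596). The other 11 passed with either VI-VIII array left out.

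Named gene lists held 378 distinct genes, of which 339 were tested; 39 had no probe set with a single gene symbol or a mean under the filter. The counts of higher and lower members below stand beside the background of 13.2% and 19.4%. Members and lists were chosen with earlier results of these data known, so their shares are a description and not a test. No list member differed from II/III-VI at the threshold. Of 166 named genes that were called, leading genes and list members together, 96 did not pass without VI-VIII replicate 1 and 70 without replicate 2. With the other windows pooled as 1 group 156 of the 166 did not pass, and in a fit of all 20 arrays 38 of 165 did not. In whole-testis RNA, fewer cells of a type and less RNA per cell cannot be told apart.

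**Figure D3:**
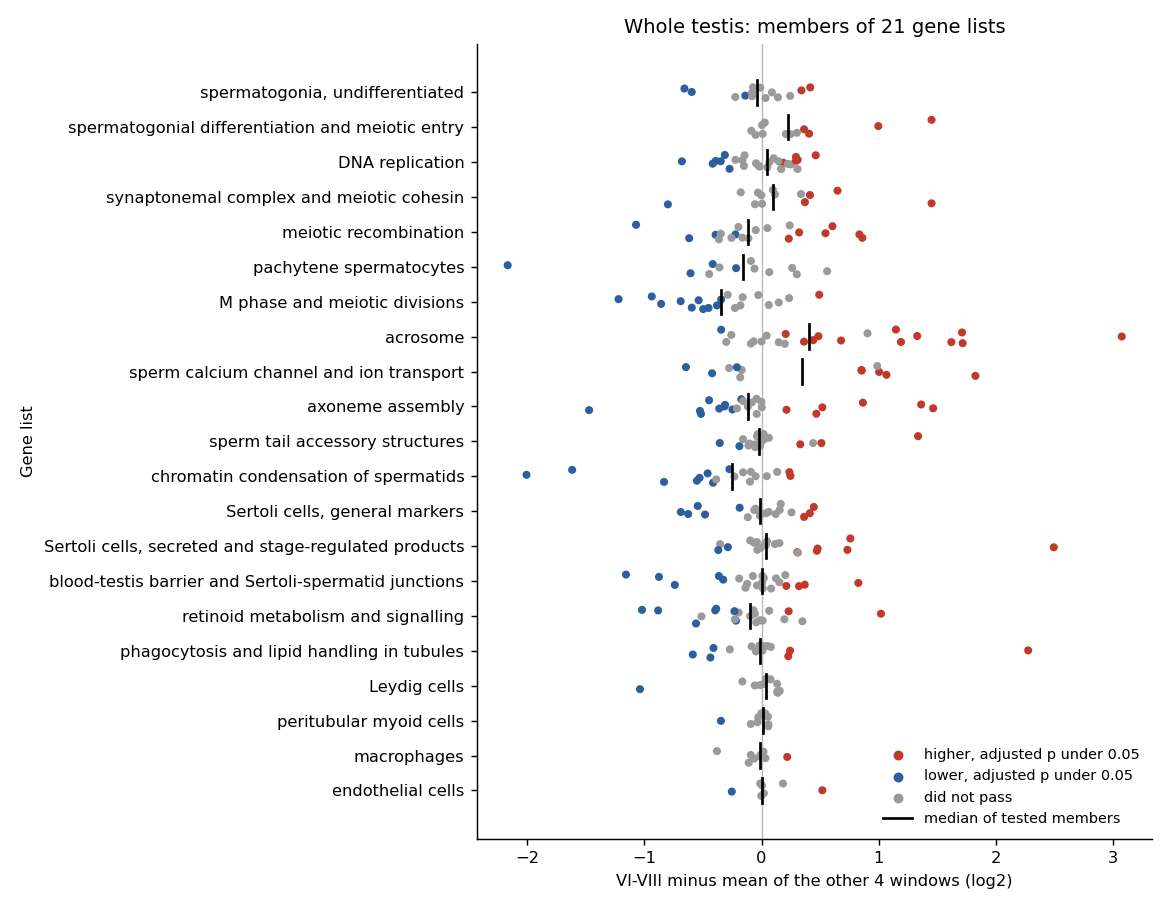
Difference between VI-VIII and the mean of the other 4 windows (x axis, log2) for each tested member of 21 gene lists (y axis, with random vertical scatter), red where higher and blue where lower at a limma adjusted p under 0.05, grey where the test was not passed, with a black line at the list's median. The acrosome list has most of its called members on the right and the list of M phase genes on the left. The marker lists of Leydig, myoid, endothelial cells and macrophages have medians close to 0. Of these the Leydig, myoid and macrophage lists have 1 called member each, and the endothelial list has 1 higher and 1 lower of 7 tested.

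Of the 21 lists the acrosome genes had the largest share of higher members. Of 22 members, all tested, 12 were higher and 1 lower, and the median difference was 0.40. Spam1, the sperm hyaluronidase, read 12.25 and 12.25 in VI-VIII and 11.87 and 12.36 in II/III-VI, whereas the 6 arrays of the other windows read 7.51 to 9.16. Its difference was 3.08 ± 0.097 (limma adjusted p = 0.0003), and the groups overlapped through II/III-VI replicate 2. Spaca1, an acrosomal membrane protein, read 12.42 and 12.80 in VI-VIII and 9.21 to 12.57 in the others (median 10.59), a difference of 1.72 ± 0.27 (limma adjusted p = 0.00572). Its level stepped down from VI-VIII through VIII-X (10.96 and 11.80) to X-XII (9.99 and 9.21). Spaca3, a lysozyme-like protein of the acrosome, read 11.89 and 11.89 against 9.80 to 11.70 (median 10.73) and was higher by 1.15 ± 0.14 (limma adjusted p = 0.0026).

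Further acrosomal genes were higher as well. The differences were 1.71 ± 0.27 for Spaca5, 1.62 ± 0.38 for Eqtn (equatorin), 1.33 ± 0.24 for Spaca4, 0.68 ± 0.21 for Acrv1, 0.49 ± 0.063 for Spaca7, 0.44 ± 0.12 for Tex101, 0.36 ± 0.095 for Fam170b and 0.21 ± 0.036 for Acr, the protease acrosin. Izumo1, the sperm protein that binds the egg receptor, read 12.28 and 12.69 in VI-VIII, 11.70 and 12.08 in II/III-VI and 11.63 and 12.34 in VIII-X, against 11.05 and 10.29 and 11.01 and 10.25 in XII-II/III and X-XII. It was higher by 1.19 ± 0.32 (limma adjusted p = 0.0314), with overlap through VIII-X replicate 2. Spata16, needed for acrosome formation, was the lower member at -0.35 ± 0.045. The test without VI-VIII replicate 1 gave 4 higher and 1 lower, and without replicate 2 it gave 3 and 2. Spaca3, Spaca7, Spata16 and Spam1 passed in both cases. Of the 22 members 14 had a higher mean in VI-VIII than in II/III-VI.

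Of the sperm calcium channel CatSper, 3 pore subunits were called higher and 2 auxiliary subunits lower. The pore subunit Catsper2 (-0.18) and the auxiliary subunits Efcab9 (0.99) and Catsperz (-0.17) were not called, so the subunit classes did not divide by direction. The list had 14 members, of which 12 were tested, 5 were higher and 3 lower, and the median difference was 0.34. Catsper3, a pore subunit, read 12.24 and 12.29 in VI-VIII and 11.92 and 12.28 in II/III-VI, then 10.49 and 11.02 in VIII-X, and between 8.83 and 9.81 in the remaining 4 arrays. It was higher by 1.83 ± 0.27 (limma adjusted p = 0.00481), with overlap through II/III-VI replicate 2. Catsper1 (1.00 ± 0.26) and Catsper4 (0.85 ± 0.19), pore subunits too, read 12.67 and 12.86 and 12.73 and 12.91 in VI-VIII. Kcnu1, the sperm potassium channel SLO3, was higher by 0.85 ± 0.14 and its partner Lrrc52 by 1.07 ± 0.29, with 12.66 and 13.00 in VI-VIII and 10.79 to 12.70 elsewhere. Catsperd (-0.65 ± 0.097) and Catsperb (-0.42 ± 0.061), auxiliary subunits, and Atp1a4, the sperm sodium pump (-0.21 ± 0.063), were lower. Leaving out VI-VIII replicate 1 gave 0 higher and 1 lower members, and leaving out replicate 2 gave 1 and 3. The test was passed either way by Catsperd.

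Genes of the axoneme, the microtubule core of the sperm tail, split by member. Of 24 members 23 were tested, 6 were higher and 9 lower, and the median difference was -0.12. Spag6, a protein of the central microtubule pair, read 13.28 and 13.47 in VI-VIII, 13.13 and 13.38 in II/III-VI and 11.09 to 12.01 in the other windows, and was higher by 1.47 ± 0.11 (limma adjusted p = 0.00108). Its paralog Spag6l read 13.35 and 13.15 in VI-VIII and 13.37 to 13.67 elsewhere (median 13.60), a difference of -0.32 ± 0.051 (limma adjusted p = 0.00595). The paralogs thus differed from the other windows in opposite directions, and the split of signal between their probe sets is uncertain because their sequences are alike. Cfap58, a flagellar assembly protein, read 11.62 and 11.50 in VI-VIII and 11.59 and 11.61 in II/III-VI against a median of 9.82 in the comparison arrays, and was higher by 1.36 ± 0.074. Tekt2 (0.87 ± 0.11), Tekt4 (0.52 ± 0.069) and Tekt1 (0.21 ± 0.051), filament proteins of the doublet microtubules, and Ift88, of intraflagellar transport (0.47 ± 0.080), were higher.

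The lower axoneme genes included 5 dynein genes, while the dynein gene Dnaic1 (-0.043) was not called. Dnaic2, an outer-arm dynein intermediate chain, read 10.32 and 9.46 in VI-VIII and 10.27 to 11.98 elsewhere (median 11.53), a difference of -1.47 ± 0.28 (limma adjusted p = 0.00965). The deposited values of its VI-VIII arrays were almost 1 log2 unit apart, the higher overlapping VIII-X replicate 2 at 10.27. The heavy chains Dnah1 (-0.53 ± 0.054), Dnah17 (-0.52 ± 0.066) and Dnah8 (-0.45 ± 0.061), the light chain gene Dnali1 (-0.25 ± 0.061), the radial spoke gene Rsph1 (-0.36 ± 0.055), Cfap44 (-0.31 ± 0.050) and the central pair gene Hydin (-0.17 ± 0.053) were lower as well. The counts were 4 higher and 4 lower without VI-VIII replicate 1, and 5 and 4 without replicate 2. Calls kept with either array left out were those of Spag6, Tekt2, Tekt4, Dnah1, Dnah8, Dnah17 and Cfap58.

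The list of accessory structures of the tail holds the fibrous sheath, the outer dense fibres and the enzymes bound to them. Of 23 members 22 were tested, 3 were higher and 2 lower (beside 13.2% and 19.4% of all tested genes), and the median difference was -0.021. Fsip1, a fibrous sheath interacting protein, read 11.79 and 11.70 in VI-VIII, 11.83 and 11.92 in II/III-VI and 9.43 to 10.47 in the rest, and was higher by 1.34 ± 0.12 (limma adjusted p = 0.00136). Fsip2 (0.51 ± 0.074) and the calcium-binding fibrous sheath protein Cabyr (0.33 ± 0.097) were higher, and Spem1, which acts in the removal of spermatid cytoplasm (-0.36 ± 0.046), and Odf2, of the outer dense fibres (-0.19 ± 0.036), were lower. With VI-VIII replicate 1 left out there were 1 higher and 1 lower members, and with replicate 2 left out 2 and 1. Fsip1 and Spem1 passed in both cases.

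Among genes that repack the spermatid nucleus, both transition protein genes were lower in VI-VIII. All 18 members were tested, 2 were higher and 8 lower, and the median difference was -0.25. Tnp1, the transition protein that replaces histones, read 10.22 and 11.40 in VI-VIII and 12.28 and 10.61 in II/III-VI, and at least 13.09 in the 6 arrays of the other windows. The difference was -2.01 ± 0.46 (limma adjusted p = 0.0187). Its low values thus stood in II/III-VI replicate 2 and in both VI-VIII arrays, and the groups overlapped. Tnp2 had a similar pattern, with 11.17 and 12.54 in VI-VIII, 13.19 and 11.90 in II/III-VI and a difference of -1.62 ± 0.42 (limma adjusted p = 0.0303). Both lost the call without VI-VIII replicate 1 (limma adjusted p = 0.183 and 0.278).

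Prm1, the first protamine, changed less but more evenly, with 13.62 and 13.31 in VI-VIII against 13.83 to 13.96 elsewhere and a difference of -0.46 ± 0.069 (limma adjusted p = 0.00477). H2bl1, a spermatid histone H2B variant, read 11.27 and 11.62 against 11.72 to 12.57 (median 12.30) and differed by -0.83 ± 0.13. Lower too were the linker histone H1f7 (-0.55 ± 0.16), Hmgb4 (-0.53 ± 0.15), Prm3 (-0.41 ± 0.10) and Kdm3a, a histone demethylase that acts on transition protein and protamine genes (-0.27 ± 0.052). The protamine gene Prm2 (-0.050) and Hils1 (-0.23) were not called. The higher members were Crem, the transcription factor of round spermatids that binds cyclic AMP response elements (0.24 ± 0.043), and Crebzf (0.25 ± 0.055). Tests on 9 arrays called 0 higher and 3 lower without VI-VIII replicate 1, and 1 and 8 without replicate 2. The test was passed either way by Prm1 and H2bl1.

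**Figure D4:**
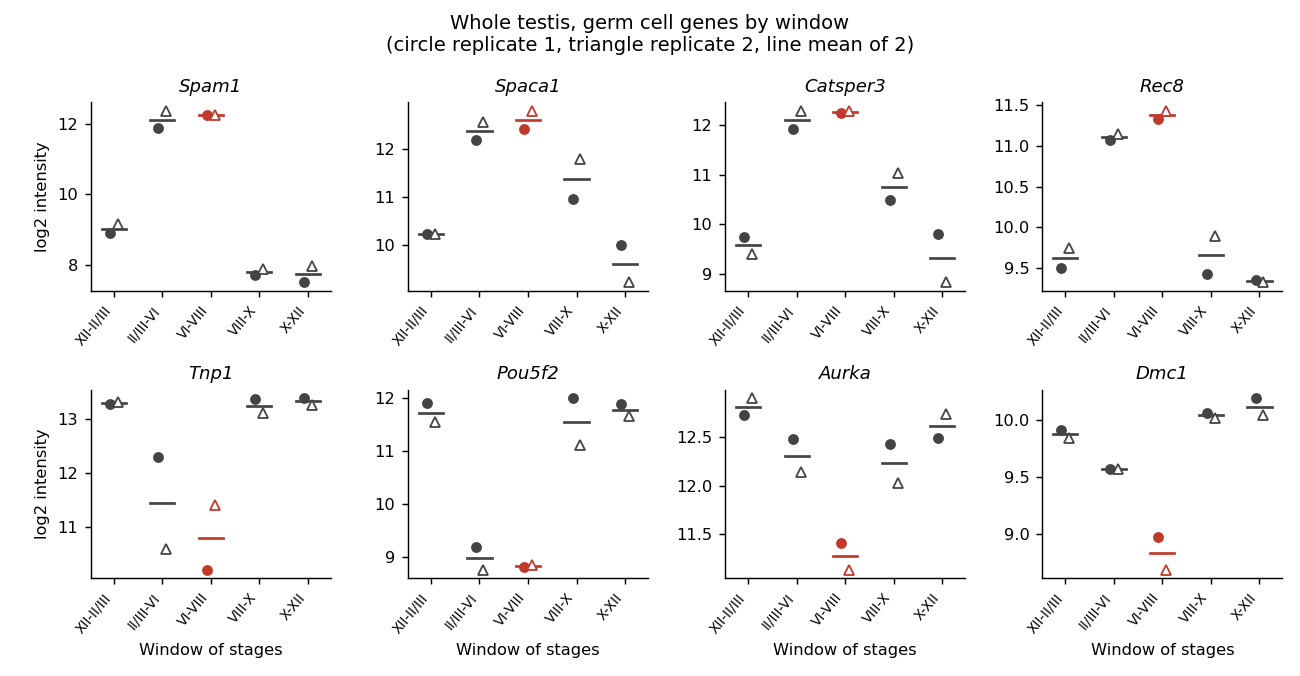
Log2 intensity (y axis) of 8 germ cell genes in each whole-testis array by window of stages (x axis), with VI-VIII in red, circles for replicate 1, open triangles for replicate 2 and lines for the mean of the pair. Spam1, Spaca1, Catsper3 and Rec8 are high in both II/III-VI and VI-VIII, Tnp1 and Pou5f2 are low in both, and Aurka and Dmc1 have their lowest values in VI-VIII.

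Because Crem binds the cyclic AMP response element, the promoters of tested genes were searched for its full palindrome, TGACGTCA, in the 250 bases before the start site, on both strands (RefSeq promoters, GRCm38.p6, 11636 of 14540 tested genes). It stood in 2.72% of the promoters of higher genes, 3.56% of those of lower genes and 2.66% of those of genes that were not called, against 2.85% of all. Among the 133 called leading genes and list members with a promoter, the 2 that held it were Izumo1, a higher gene, and Spag6l, a lower one, and both stretches are shown with the element in capitals.
Izumo1 (chr7:45621689-45621748, plus strand): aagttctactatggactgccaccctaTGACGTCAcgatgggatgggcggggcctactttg
Spag6l (chr16:16829364-16829398, minus strand): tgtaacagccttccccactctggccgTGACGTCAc
The Izumo1 element begins 96 bases and the Spag6l element 9 bases before the annotated start of its gene. The X-box GTTGCCATG, the site of RFX factors of ciliary genes, was searched in the same way. It stood in 1.36% of promoters of higher genes, 0.834% of those of lower genes, 0.666% of those not called and 0.791% of all, and in 0 of the 133. Neither motif contains the other, and a match is a description of the sequence.

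Genes of differentiating spermatogonia and of meiotic entry had higher members and no lower one. Of 14 members 12 were tested, 4 were higher and 0 lower, and the median difference was 0.23. Rec8, the meiotic cohesin, read 11.33 and 11.43 in VI-VIII and 11.07 and 11.15 in II/III-VI, against 9.32 to 9.89 in the other windows. It was higher by 1.45 ± 0.091 (limma adjusted p = 0.00084), and its VI-VIII values stood above all others. Esx1, an X-linked homeobox gene, read 9.65 and 9.56 against 8.13 to 9.03 (median 8.71) and was higher by 1.00 ± 0.11 (limma adjusted p = 0.00209). Ythdc2, an RNA helicase needed for the meiotic programme (0.41 ± 0.082), and Dmrt1, a transcription factor of spermatogonia and Sertoli cells (0.36 ± 0.085), were higher too. The test without VI-VIII replicate 1 gave 2 higher and 0 lower, and without replicate 2 it gave 6 and 0. Calls kept with either array left out were those of Rec8 and Esx1. Stra8, the retinoic acid target of meiotic entry, had a mean under the filter and was not tested. It read 7.63 and 7.95 in VI-VIII, and its highest values were those of VIII-X, 8.53 and 8.90.

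Markers of undifferentiated spermatogonia showed no common direction. Of 18 members 14 were tested, 2 were higher and 3 lower, and the median difference was -0.042. These shares were close to those over all tested genes (13.2% and 19.4%). Id4, a marker of stem spermatogonia, was higher by 0.42 ± 0.11 and Foxo1 by 0.34 ± 0.079. Etv5, a target of GDNF signalling (-0.66 ± 0.15), Uchl1 (-0.60 ± 0.090) and the GDNF receptor Gfra1 (-0.14 ± 0.042) were lower. Etv5 read 9.63 and 8.94 in VI-VIII against 9.70 to 10.14, all below the others but 0.69 apart. Leaving out VI-VIII replicate 1 gave 0 higher and 1 lower members, and leaving out replicate 2 gave 3 and 1. None of the 5 called members passed in both cases.

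Of 28 replication genes 27 were tested, 5 were higher and 6 lower, shares close to those over all tested genes (13.2% and 19.4%), and the median difference was 0.049. The helicase subunits Mcm3 (0.46 ± 0.064) and Mcm2 (0.31 ± 0.072), the replication factors Cdc45 (0.29 ± 0.042) and Rpa2 (0.29 ± 0.082) and the licensing factor Cdt1 (0.19 ± 0.053) were higher. Rrm1, a ribonucleotide reductase subunit, read 11.61 and 11.39 in VI-VIII against 11.85 to 12.42 (median 12.17) and was lower, with a difference of -0.68 ± 0.10 (limma adjusted p = 0.00478). Uhrf1, which maintains DNA methylation (-0.42 ± 0.071), Gins2 (-0.39 ± 0.074), Rrm2 (-0.35 ± 0.072), Cdc6 (-0.31 ± 0.066) and cyclin Ccne1 (-0.27 ± 0.047) were lower as well. The counts were 2 higher and 3 lower without VI-VIII replicate 1, and 5 and 0 without replicate 2. The test was passed either way by Mcm3 and Cdc45.

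Among genes of the synaptonemal complex and the meiotic cohesins, 13 of 14 members were tested, 4 were higher and 1 lower, and the median difference was 0.097. Beside Rec8 the higher members were the complex proteins Tex12 (0.65 ± 0.13) and Sycp1 (0.41 ± 0.083) and the cohesin Smc1b (0.37 ± 0.074). The cohesin Rad21l was lower (-0.80 ± 0.23), with 7.42 and 7.61 in VI-VIII and its highest values in VIII-X (8.70 and 9.24). Its VI-VIII values lay under the filter level of log2 8.12. With VI-VIII replicate 1 left out there were 1 higher and 0 lower members, and with replicate 2 left out 2 and 0. Calls kept with either array left out were those of Rec8.

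Recombination genes moved in both directions. Of 27 members 19 were tested, 6 were higher and 4 lower, and the median difference was -0.11. Dmc1, the meiotic recombinase, read 8.97 and 8.69 in VI-VIII, 9.57 and 9.57 in II/III-VI and up to 10.19 in X-XII. It was lower, with a difference of -1.07 ± 0.060 (limma adjusted p = 0.00083), and both VI-VIII arrays lay below all others. Iho1 (-0.62 ± 0.16) and Spo11 (-0.39 ± 0.085), which act in making the double-strand breaks, and Hsf2bp (-0.22 ± 0.040) were lower too. Spata22, a partner of the single-strand binding protein Meiob, read 11.29 and 11.46 against 10.21 to 10.99 (median 10.51) and was higher by 0.84 ± 0.11 (limma adjusted p = 0.00332). Higher members that act at crossover sites were Ccnb1ip1 (0.86 ± 0.19), Msh4 (0.55 ± 0.045) and Exo1 (0.32 ± 0.096). Mcmdc2 (0.61 ± 0.13) was higher as well, and so was Rec114 (0.23 ± 0.062), which acts in break formation like Iho1 and Spo11. The crossover genes Hfm1 (0.24), Msh5 (-0.11), Mlh3 (-0.26) and Shoc1 (-0.050) were not called. Tests on 9 arrays called 2 higher and 1 lower without VI-VIII replicate 1, and 2 and 2 without replicate 2. Dmc1, Spata22 and Msh4 passed in both cases.

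Pachytene markers included no higher member. Of 13 members 12 were tested and 4 were lower, and the median difference was -0.15. Pou5f2, a POU transcription factor of spermatocytes, read 8.82 and 8.85 in VI-VIII and 9.18 and 8.76 in II/III-VI, and at least 11.10 in the 6 other arrays. Its difference was -2.17 ± 0.15 (limma adjusted p = 0.00104), with overlap through II/III-VI. Ovol1 (-0.61 ± 0.083), Mybl1, the A-MYB regulator of pachytene transcription (-0.42 ± 0.050), and Adam2, a sperm surface protein (-0.22 ± 0.052), were lower by less. The test without VI-VIII replicate 1 gave 0 higher and 2 lower, and without replicate 2 it gave 0 and 3. The test was passed either way by Pou5f2 and Mybl1.

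Some kinases and checkpoint genes of M phase and the meiotic divisions were among the lower genes. Of 20 members 19 were tested, 1 was higher and 10 lower, and the median difference was -0.34. Aurka, a kinase of spindle assembly, read 11.41 and 11.14 in VI-VIII, 12.48 and 12.14 in II/III-VI and 12.43 and 12.03 in VIII-X, with its highest values in XII-II/III (12.73 and 12.90). It was lower, with a difference of -1.22 ± 0.14 (limma adjusted p = 0.00236), and the VI-VIII values lay below all others. Nek2, a kinase of centrosome separation, read 11.47 and 11.32 against 11.64 to 12.58 (median 12.35) and was lower, with a difference of -0.86 ± 0.091 (limma adjusted p = 0.00196). Cdk1, the kinase that drives entry into M phase, read 10.81 and 10.80 in VI-VIII, 11.05 and 10.82 in II/III-VI and 12.02 and 12.06 in XII-II/III, a difference of -0.69 ± 0.087 (limma adjusted p = 0.00291). Aurkc (-0.94 ± 0.14), the securin gene Pttg1 (-0.60 ± 0.087), the separase gene Espl1 (-0.54 ± 0.12), the checkpoint genes Bub1b (-0.50 ± 0.085) and Ttk (-0.38 ± 0.097), the cohesion protector Sgo2a (-0.45 ± 0.077) and the kinetochore gene Knl1 (-0.34 ± 0.059) were lower. Cdc25c, the phosphatase that activates Cdk1, was the higher member (0.49 ± 0.074). The members Plk1 (-0.16), Bub1 (-0.028), Cdc20 (-0.29), Kif11 (-0.23) and Top2a (-0.18) were not called. Nor were Meikin (0.24), Ccnb2 (0.15) and Ube2c (0.062). Leaving out VI-VIII replicate 1 gave 1 higher and 4 lower members, and leaving out replicate 2 gave 1 and 5. Calls kept with either array left out were those of Cdk1, Cdc25c, Aurka and Nek2. In 1 of the 19 the VI-VIII mean exceeded that of II/III-VI.

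General Sertoli cell markers were called in both directions. Of 20 members 19 were tested, 3 were higher and 5 lower (beside 13.2% and 19.4% of all tested genes), and the median difference was -0.013. Their mean level lay between 10.55 and 10.66 in the VI-VIII arrays and between 10.54 and 10.72 in the others. Fshr, the receptor of follicle-stimulating hormone, read 8.64 and 8.44 in VI-VIII against 8.95 to 9.28 (median 9.11) and was lower, with a difference of -0.54 ± 0.061 (limma adjusted p = 0.00213). Trf, which encodes transferrin, read 9.25 and 9.08 against 9.59 to 10.10 and was lower, with a difference of -0.69 ± 0.10 (limma adjusted p = 0.00477). Both VI-VIII arrays of each gene lay below all others. Shbg, the androgen-binding protein (-0.63 ± 0.11), the inhibin alpha subunit Inha (-0.48 ± 0.088) and Dhh, a hedgehog ligand (-0.19 ± 0.048), were lower, and the X-linked genes Tsx (0.45 ± 0.077) and Rhox8 (0.41 ± 0.083) and Dmrt1 were higher. The counts were 0 higher and 2 lower without VI-VIII replicate 1, and 2 and 3 without replicate 2. Fshr passed in both cases.

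Secreted and stage-regulated Sertoli cell products included the large difference of Aqp8. Of 22 members 20 were tested, 6 were higher and 2 lower, and the median difference was 0.041. Beside Aqp8, Eppin, a protease inhibitor of the sperm surface, read 13.07 and 13.08 in VI-VIII and 11.90 to 12.92 elsewhere (median 12.31) and was higher by 0.76 ± 0.14 (limma adjusted p = 0.00924). Corin, a membrane protease (0.73 ± 0.13), Igf1 (0.48 ± 0.086), Serpina5, the protein C inhibitor (0.47 ± 0.078), and the protease gene Ctsl (0.31 ± 0.086) were higher. Tubb3, a tubulin (-0.37 ± 0.086), and the inhibin beta subunit Inhbb (-0.29 ± 0.067) were lower. With VI-VIII replicate 1 left out there were 1 higher and 0 lower members, and with replicate 2 left out 2 and 1. The test was passed either way by Aqp8.

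Junction genes of Sertoli cells were called in both directions. Of 23 members 22 were tested, 4 were higher and 5 lower (beside 13.2% and 19.4% of all tested genes), and the median difference was 0.0061. The tight junction members Jam2 (0.20), Tjp1 (0.15), Cldn11 (0.12), Cldn5 (0.011) and Jam3 (-0.19) were not called. Ocln, the tight junction protein occludin, read 8.003 and 7.83 in VI-VIII, 8.70 and 8.41 in II/III-VI and up to 9.38 in X-XII. It was lower, with a difference of -1.16 ± 0.089 (limma adjusted p = 0.00109). Its VI-VIII values lay below all others and under the filter level of log2 8.12. Nectin2, an adhesion protein at Sertoli-spermatid contacts, read 9.91 and 10.06 against 10.004 to 11.37 (median 11.07) and was lower, with a difference of -0.88 ± 0.11 (limma adjusted p = 0.00257). Cdh2, N-cadherin, read 11.53 and 11.48 in VI-VIII and 11.73 and 11.56 in II/III-VI, against a median of 12.44 in the comparison arrays, and was lower, with a difference of -0.74 ± 0.046 (limma adjusted p = 0.00083). F11r, the junctional adhesion molecule JAM-A (-0.36 ± 0.060), and Cldn3 (-0.33 ± 0.091) were lower by less. Amph, which encodes amphiphysin, read 9.67 and 10.13 against 8.71 to 9.98 (median 8.83) and was higher by 0.83 ± 0.11 (limma adjusted p = 0.00353), and Cadm1 (0.37 ± 0.038), the actin regulator Cttn (0.32 ± 0.061) and the laminin chain Lama3 (0.21 ± 0.042) were higher. Tests on 9 arrays called 2 higher and 3 lower without VI-VIII replicate 1, and 3 and 5 without replicate 2. Calls kept with either array left out were those of Ocln, Cdh2, Nectin2, Amph and Cadm1.

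Called retinoid genes included 3 receptors, all lower, and the storage enzyme Lrat, which was higher. The receptors Rxra (0.35), Rarg (0.0095) and Rxrb (-0.096) were not called. Of 24 members 21 were tested, 2 were higher and 7 lower, and the median difference was -0.096. Lrat, which esterifies retinol for storage, read 10.58 and 10.30 in VI-VIII, 10.47 and 10.66 in II/III-VI and 8.82 to 9.31 in the other windows, and was higher by 1.02 ± 0.090 (limma adjusted p = 0.00136). Aldh1a1, which makes retinoic acid, was higher by 0.23 ± 0.053, while its relative Aldh1a2 was lower (-0.22 ± 0.033). Rdh10, which oxidizes retinol to retinal, read 9.86 and 10.71 in VI-VIII and 9.40 and 9.71 in II/III-VI against up to 12.35 in VIII-X, a difference of -0.88 ± 0.25 (limma adjusted p = 0.0385, and 0.365 without VI-VIII replicate 1). Rxrg, a retinoid X receptor, read 7.98 and 7.999 in VI-VIII, under the filter level of log2 8.12, against a median of 9.15. It was lower, with a difference of -1.02 ± 0.12 (limma adjusted p = 0.00226), with overlap through II/III-VI. Rarb (-0.39 ± 0.11), Rara (-0.23 ± 0.063), Adh4 (-0.56 ± 0.12) and Rdh11 (-0.40 ± 0.054) were lower. The test without VI-VIII replicate 1 gave 1 higher and 3 lower, and without replicate 2 it gave 2 and 5. Rdh11, Lrat and Rxrg passed in both cases.

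Genes of phagocytosis and lipid handling, which Sertoli cells use on residual cytoplasm, were called equally in both directions. Of 16 members 15 were tested, 3 were higher and 3 lower (beside 13.2% and 19.4% of all tested genes), and the median difference was -0.017. The lysosomal protease gene Ctsd (0.24 ± 0.068) and the lipid exporter Abca1 (0.23 ± 0.054) were higher beside Plin2. Elmo1, an adaptor of engulfment, read 10.36 and 10.29 against 10.60 to 11.21 (median 10.96) and was lower, with a difference of -0.59 ± 0.054 (limma adjusted p = 0.00149). Lipe, the hormone-sensitive lipase (-0.41 ± 0.048), and the phagocytic receptor Axl (-0.44 ± 0.11) were lower. Leaving out VI-VIII replicate 1 gave 1 higher and 3 lower members, and leaving out replicate 2 gave 2 and 3. The test was passed either way by Plin2, Elmo1 and Lipe.

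Among markers of cells outside the tubules, the Leydig, myoid and macrophage lists had few called members. Among Leydig cell markers 11 of 14 were tested, 0 were higher and 1 lower, and the median difference was 0.041. Their mean level lay between 10.37 and 10.61 in the VI-VIII arrays and between 10.31 and 10.69 in the others. The lower one was Star, which carries cholesterol into mitochondria, with 9.51 and 10.16 in VI-VIII and 10.37 to 11.40 elsewhere (median 10.85). Star was lower, with a difference of -1.04 ± 0.25 (limma adjusted p = 0.0213), both VI-VIII arrays lying below all others, and the adjusted p without VI-VIII replicate 1 was 0.221. The steroidogenic enzymes Cyp11a1 (0.16 ± 0.13), Hsd17b3 (0.13 ± 0.071) and Cyp17a1 (0.041 ± 0.085), whose promoter drives the Cre, did not pass. Of 10 peritubular myoid markers, all tested, 1 was lower (Mylk, -0.35 ± 0.063). Of 9 tested macrophage markers 1 was higher (Adgre1, 0.22 ± 0.058), and of 7 tested endothelial markers 1 was higher (Cdh5, 0.52 ± 0.13) and 1 lower (Egfl7, -0.25 ± 0.042). Without VI-VIII replicate 1 none of these 5 calls was kept, and without replicate 2 those of Star, Cdh5 and Egfl7 were (limma adjusted p = 0.0341, 0.033 and 0.0492). The mean levels of these lists overlapped between VI-VIII and the other windows.

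The same VI-VIII difference was measured in the IP arrays, and the difference between both was tested on the Total minus IP values of same-numbered pairs. Of 14522 genes the signed VI-VIII difference was more positive in Total than in IP for 230 (1.58%) and more negative for 481 (3.31%). The counts go by sign, not by size, so a gene that fell further in Total, such as Nqo2, is among the more negative. The balance of both counts moved with the scaling, to 335 more positive and 307 more negative after median centring and 230 and 267 after quantile normalization. Plin2 had a VI-VIII difference of 2.28 in Total and 0.34 in IP, where it read 11.99 and 12.37 in VI-VIII and 11.65 to 12.39 in the other windows, and the difference between them was 1.94 ± 0.15 (limma adjusted p = 0.00944). Serpina3a had 2.65 in Total and 0.97 in IP (1.67 ± 0.17, limma adjusted p = 0.0114), reading 12.16 and 11.99 in the VI-VIII IP arrays. Nqo2 had -1.96 in Total and -0.26 in IP (-1.70 ± 0.20, limma adjusted p = 0.0134). Acrv1 was higher in VI-VIII in both fractions, by more in IP, with 0.68 in Total and 1.83 in IP (-1.16 ± 0.18, limma adjusted p = 0.0204). Aqp8 and Spam1 had differences of 2.50 and 3.08 in Total beside 2.48 and 3.12 in IP. The sperm genes Spam1 and Acrv1 thus varied by window in IP as well. How much germ cell RNA the IP arrays hold was not tested. Total against IP is therefore not read as whole testis against Leydig cells. These counts depended on both VI-VIII pairs: without replicate 1 limma called 0 and 0 (832 and 1842 at an unadjusted p under 0.05), and without replicate 2 they were 4 and 4. Without the replicate block they were 7 and 8.

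**Figure D5:**
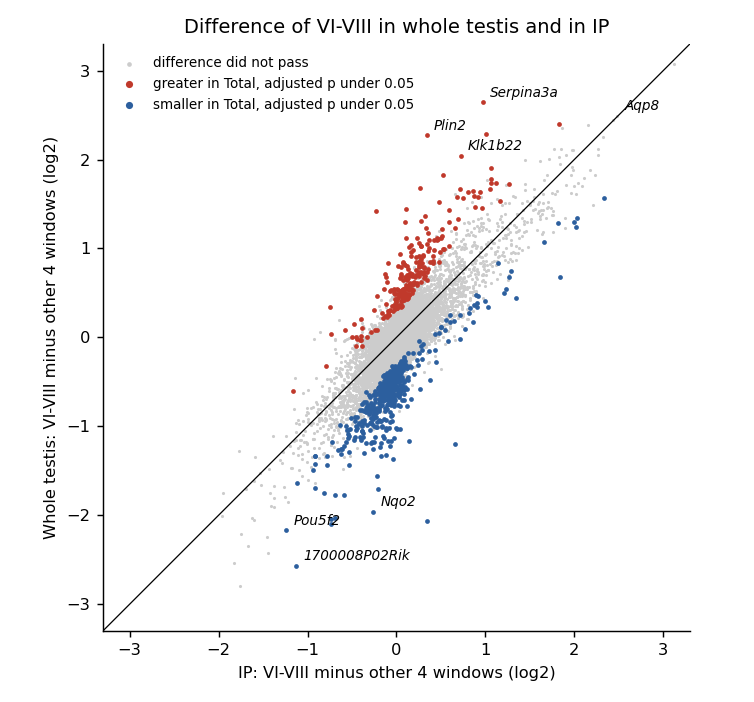
Difference between VI-VIII and the mean of the other 4 windows (log2) for each of 14522 genes in IP (x axis) and in whole testis (y axis), with the line of equality. Red points had a more positive and blue points a more negative signed difference in whole testis than in IP at a limma adjusted p under 0.05. Plin2 and Serpina3a lie well above the line, Nqo2 and 1700008P02Rik below it, and Aqp8 close to it.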

How the data were processed

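Values were the intensities the authors deposited, made with RMA per the submitters' processing notes (version not given in the sources used here). Ties within sets of 5 arrays (13.5% and 9.23% of value pairs in the 2 Total sets, but 4 of 645075 pairs across them) are why the set was a model term. Same-numbered arrays of different windows deviated together with r from -0.108 to 0.657, and the numbers therefore were taken as sets, not pairs of animals. Replicate differences of Total and IP correlated within windows with r from 0.306 to 0.530. Array medians lay between log2 9.16 and 9.20. Log2 values were fitted with limma 3.58.1 in R 4.3.3, with a mean for each of 5 windows and the set as a block; for Total minus IP, same-numbered differences were fitted alike. P-values were two-sided. Of 28856 probe sets, 21789 with 1 gene symbol were used, and the brightest was kept for each of 927 genes with several. The filter was the 25th percentile of all Total values, on the mean over 10 arrays. Named genes were list members and the 12 highest and 12 lowest called genes whose set-centred VI-VIII values lay outside all others. Members and lists were chosen with earlier results of these data known. The fit was tested on simulated data. The number of arrays limits the precision. Alternatives covered normalization, filter, weights, block, probe set and each array left out.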

Additional observations from a re-analysis of the deposited data

Results flagged for a closer look

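A difference between whole testis and IP in how VI-VIII stood against the other windows, tested on the same-numbered Total minus IP values with limma, marked 230 genes with a more positive difference in Total and 481 with a more negative one. Greater and smaller below refer to the sign of Total minus IP, not to size. After median centring the counts were 335 and 307, and after quantile normalization 230 and 267. Among the named genes 20 were marked in this way. The VI-VIII difference in Total exceeded that in IP by 1.67 for Serpina3a, 1.28 for Stambpl1, 1.94 for Plin2, 1.32 for Klk1b22, 0.47 for Esx1 and 0.40 for Serpina5 (log2). It was below that in IP, with Total minus IP values of -1.44 for 1700008P02Rik, -1.31 for Tuft1, -1.70 for Nqo2, -1.08 for Tarsl2, -0.93 for Tex46, -0.46 for Taf4b, -0.70 for Dmc1, -0.93 for Pou5f2, -0.43 for Pttg1, -1.16 for Acrv1, -0.49 for Cabyr, -0.47 for H2bl1, -0.57 for Rxrg and -0.62 for Elmo1. For Acrv1 and Cabyr both fractions were higher in VI-VIII, by more in IP. The limma adjusted p of the 20 genes lay between 0.00944 and 0.0493. The labels do not state how Total and IP arrays were normalized to each other, and the part of scaling in single genes was not tested. With the VI-VIII pair of replicate 1 left out 0 genes passed limma's adjusted threshold in either direction (832 greater and 1842 smaller at an unadjusted p under 0.05), and with that of replicate 2 left out 4 and 4 did.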

How the results depend on the processing

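No named gene that was called changed direction under any alternative run. Calls for VI-VIII against the other 4 windows stayed within 1.5 times under median centring, quantile normalization, other filters, array weights, an intensity trend, all 20 arrays and averaged probe sets. The balance shifted with scaling, to 2085 higher and 2630 lower after median centring and 2231 and 2450 after quantile normalization, and against VIII-X to 2064 and 2202 and to 2154 and 2183. The replicate block mattered little for them: without it 1718 genes were higher and 2383 lower. Treating the other windows as 1 group gave 80 and 178, since differences among those windows then count as spread. With 1 array left out, calls ranged from 659 to 1911 higher and 930 to 2620 lower. Leaving out a VI-VIII array leaves 1 in that group, which is assumed to vary like the others. The ranges then were 1086 to 1314 and 1614 to 2087 against XII-II/III, 675 to 1232 and 979 to 1871 against VIII-X, 1246 to 1524 and 1658 to 2231 against X-XII, and 0 to 7 and 0 to 1 against II/III-VI. The comparison of Total with IP was the least stable, with 0 to 4 genes in either direction when a VI-VIII pair was left out. It gave 7 and 8 genes without the replicate block and 136 and 257 in an unpaired fit. After median centring 335 signed differences were more positive and 307 more negative in Total, and after quantile normalization 230 and 267. The cause was not tested. Groups of 2 arrays and signals near the filter limit what small differences can show.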

Other observations

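Genes called in VI-VIII were counted by chromosome, as a description. Of 443 tested genes on chromosome X, 89 were higher (20.1%, beside 13.2% of all tested genes) and 45 lower (10.2%, beside 19.4%). The higher ones included the acrosome gene Spaca5, the homeobox gene Esx1 and the Sertoli cell genes Tsx and Rhox8. On chromosome 11, 110 of 1252 genes were higher (8.79%) and 285 lower (22.8%), the lower ones including Dnaic2, Dnah17, Pttg1, Shbg, Spem1, Rara and Spata32. The other autosomes ranged from 10.9% (chromosome 17) to 16.2% (chromosome 3) higher and from 16.5% (chromosome 13) to 22.7% (chromosome 15) lower. Chromosome X and chromosome 11 were singled out after their values were seen.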
